A study of Homo sapiens with 2 samples.

Results

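The 34 genes described here are targets of the tumour suppressor p53 and inhibitors of cyclin-dependent kinases (CDKs), chosen by name from the p53 pathway and the CDKN families, out of 19775 genes read by at least 1 single-gene probe set of the array. The cells were HEK-293T, an established human embryonic kidney line that carries the SV40 large T antigen, and mRNA was measured after transfection with a miR-194 mimic or with a negative control mimic. Both groups are the same line, cultured alike, transfected by lipofection with 50 nM of synthetic mimic, and treated for 48 h. Each group holds 1 Affymetrix 3' expression array, so no test between the conditions is possible and every difference is a description of 2 arrays. Differences between cultures, labelling reactions and arrays cannot be told apart from an effect of the mimic.

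Of the 34 genes, 31 had a single-gene probe set and 30 gave a signal above the array median on at least 1 array; all 30 did so on both. GADD45G, a stress-induced growth arrest gene, stayed under that floor with signals of 5.46 on the control array and 9.04 on the miR-194 array. CDKN2C, BTG2 and FDXR had no single-gene probe set in the annotation used and were not analysed here. RRM2B and SESN3 were lower by 1.5-fold or more and 0 members were higher by that size, against 7.36% of all 12769 kept genes lower and 3.02% higher. The members' share on the low side, 6.67%, lay near that of all genes, and the median log2 difference was 0.04 for the members and 0.02 for all genes.

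p53 is a transcription factor that is stabilised after DNA damage and other stress, and switches on genes that stop the cell cycle, repair DNA or start cell death. It also switches on its own inhibitors, MDM2 among them, which closes a negative feedback loop. The CIP/KIP proteins (CDKN1A, CDKN1B, CDKN1C) bind complexes of cyclins with CDKs, and the INK4 proteins bind CDK4 and CDK6 and keep cyclin D away. The SV40 large T antigen of HEK-293T cells binds p53 and the RB proteins, so p53 accumulates in an inactive complex and the CDK inhibitors act on a pathway whose end point is already bypassed. miR-194 has been reported to be induced by p53 and to repress MDM2 in other cells.

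The mature sequence of miR-194 is shown because its seed is the part that pairs with target mRNAs. The labels name miR-194 without an arm, and the 5p arm is the one printed, from the RefSeq tables on GRCh38.p14, with the seed (bases 2 to 8) in capitals.
hsa-miR-194-5p: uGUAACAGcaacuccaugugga
Both genomic copies, MIR194-1 on chromosome 1 (chr1:220118206-220118227, minus strand) and MIR194-2 on chromosome 11 (chr11:64891404-64891425, minus strand), give this same sequence. Seed matches in the members' mRNAs were not analysed here.

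Signals are the authors' MAS5 values on a linear scale in arbitrary units, and each difference is on the log2 scale, negative where the miR-194 array was lower. Values under an array's median, a signal of 68.6 on the control array and 66.8 on the miR-194 array, were set to that median, which is called the floor. A gene is represented by its brightest kept probe set. The value after ± is the probe set error, the typical disagreement between probe sets of a gene at that signal: 0.38, 0.31 or 0.27 from low to high signal on the log2 scale. It covers neither the spread between cultures nor that between arrays. By this yardstick 8 of the 30 kept members (26.7%) differed by more than their error, 6 lower and 2 higher, against 29.3% of all kept genes. All 12769 kept genes leaned to the low side as well, with 2166 lower and 1580 higher by more than their error. All 8 fixed markers of HEK-type cells were kept, from KRT18 to the neurofilament NEFL, while 5 of 19 markers of hepatocytes, blood, endothelium and fibroblasts passed the floor. ALB, PTPRC, CDH5 and VWF lay under it on both arrays.

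**Figure D1:**
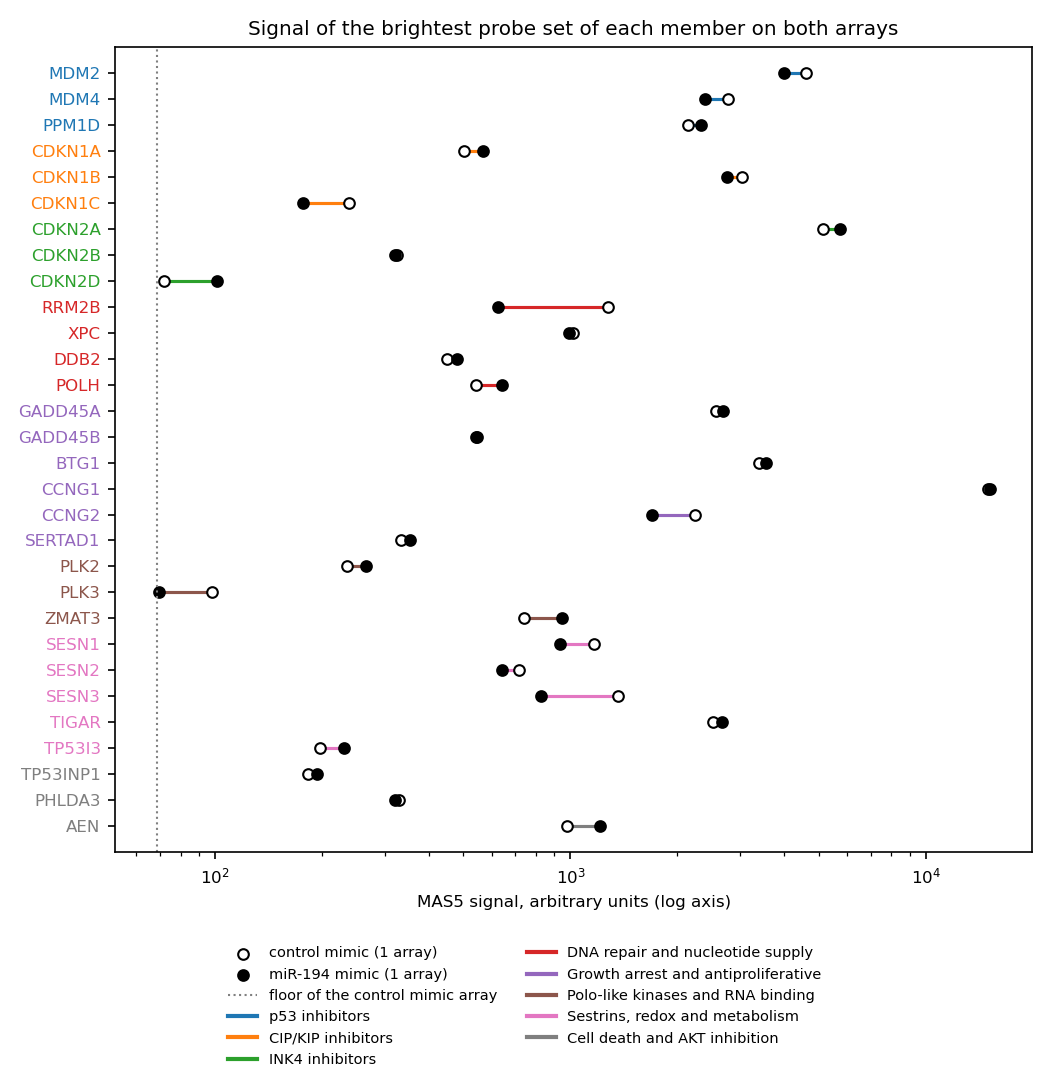
Signal of the brightest probe set of each of the 30 kept members on a log axis, in arbitrary units, with open circles for the control mimic array, filled circles for the miR-194 mimic array and colours for the role of the gene. The longest line joins the RRM2B signals of 1277 and 627; most other pairs of circles nearly touch.

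The inhibitors of p53 differed little on their brightest probe sets. MDM2, the ubiquitin ligase that marks p53 for degradation, had a signal of 4609 on the control array and 3996 on the miR-194 array, a log2 difference of -0.21 ± 0.27. MDM2 was read by 7 kept probe sets, 4 of them lower and 3 higher, from -0.29 to 0.42, and the next brightest, at 1663 and 1358, was at -0.29. None of the 7 passed 1.5-fold. Without probe sets of shared sequence MDM2 was at 0.18, on a much dimmer probe set (217542_at, signals of 192 and 218). MDM4, the relative of MDM2 that masks the activation domain of p53, went from 2770 to 2387 on its brightest probe set (-0.21 ± 0.27). The other 5 MDM4 probe sets were all higher, from 0.05 to 0.74. The 2 highest of these were dim, with signals of 86.0 and 143 (225742_at) and of 70.8 and 112 (241876_at), and both passed 1.5-fold. So the brightest MDM4 probe set and the others differed in sign, and the mean over the 6 was 0.35. PPM1D, the phosphatase that removes activating phosphates from p53 and its kinases, was at 2144 and 2332 (0.12 ± 0.27), with its second probe set at -0.19.

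The CIP/KIP inhibitors differed by less than 1.5-fold, with both signs. CDKN1A, which encodes p21 and is the best known p53 target in cell cycle arrest, had signals of 503 and 568 (0.17 ± 0.38) on its single probe set. CDKN1B, which encodes p27 and is controlled mainly through protein turnover, was at 3042 and 2756 (-0.14 ± 0.27). Both differences lay within the probe set error. CDKN1C, the imprinted gene of p57, was at 239 and 177 (-0.43 ± 0.38) on its brightest probe set. Its other 3 kept probe sets ranged from -0.11 to 0.82, and the highest of them, 216894_x_at, went from 87.1 to 153.3. CDKN1C thus had probe sets beyond its error in both directions.

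Among the INK4 inhibitors, CDKN2A, whose locus encodes both p16 and the MDM2 antagonist ARF, was at 5124 and 5727 (0.16 ± 0.27), and its other kept probe set, at 2987 and 3062, was at 0.04. The brighter one is of a type designed on shared sequence, and p16 and ARF transcripts were not told apart here. CDKN2B, the p15 gene beside it, was at 326 and 320.2 (-0.02 ± 0.38). CDKN2D, the p19 inhibitor, was at 72.0 and 101.6, the highest difference of the 30 members at 0.50 ± 0.38. That probe set lies just above the floor of 68.6, and the difference is under 1.5-fold. The 3 kept INK4 genes had a median of 0.16.

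The largest difference among the members was in a gene of nucleotide supply. RRM2B, the p53-inducible small subunit of ribonucleotide reductase that supplies deoxynucleotides for DNA repair outside S phase and for mitochondrial DNA, had a signal of 1277 on the control array and 627 on the miR-194 array. This is 2.04-fold lower (-1.03 ± 0.31), on the 1 probe set of the gene (223342_at), and 161 of the 12769 kept genes had a lower difference. It was the only member past 2-fold, a size that 1.42% of all kept genes reached on the low side and 0.446% on the high side. It fell just short of 2-fold after median scaling and after quantile normalization, at -0.99 under both. The repair genes beside it were nearly level: XPC, which recognises helix-distorting damage, was at 1017 and 993 (-0.03 ± 0.31). DDB2, which detects ultraviolet damage in chromatin, was at 450 and 479.6 (0.09 ± 0.38). Both are direct p53 targets read by 1 probe set each. POLH, the polymerase that copies past ultraviolet lesions, was at 543 and 641 (0.24 ± 0.38), but its 6 kept probe sets ran from -1.08 (219380_x_at, signals of 296 and 140.3) to 1.03 (1557701_s_at, signals of 71.7 and 146.2). No direction can be read for POLH from probe sets that far apart.

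The growth arrest genes lay close to 0 on their brightest probe sets, except CCNG2. GADD45A, a stress sensor that binds CDK1 and PCNA, was at 2566 and 2681 (0.06 ± 0.27). GADD45B was at 545 and 544 (-0.0028 ± 0.38), with other probe sets from -0.42, where the miR-194 array was at the floor, to 0.27. CCNG1, an atypical cyclin and direct p53 target, had signals of 14994 and 15182 (0.02 ± 0.27), and was at -0.10 after quantile normalization and after loess. BTG1, an antiproliferative partner of the mRNA deadenylase, was at 3384 and 3539 (0.06 ± 0.27), with its second probe set at 0.12. SERTAD1, which binds CDK4 and E2F complexes, was at 333 and 355 (0.09 ± 0.38). CCNG2, the cyclin G that is driven by FOXO factors and associated with quiescence, went from 2239 to 1699 (-0.40 ± 0.27), beyond its error. Its other kept probe sets ran from -0.82 (228081_at, 238 and 134.7) to 0.76 (211559_s_at, 159 and 269), so the probe sets of CCNG2 disagreed in direction as well.

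PLK2 and PLK3 are stress-responsive polo-like kinases, and ZMAT3 is an RNA-binding splicing regulator downstream of p53. PLK2 was at 236 and 266 (0.17 ± 0.38). PLK3 was at 98.3 and 69.4 (-0.50 ± 0.38), with the second value close to the floor of 66.8. ZMAT3 was at 738 and 945 (0.36 ± 0.31), which with CDKN2D makes up the 2 members above 0 by more than their error. Of its 4 kept probe sets 3 were higher, up to 0.36, and 1 was lower at -0.47 (225725_at, 448 and 324).

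All 3 sestrins, stress-induced inhibitors of mTORC1 with an antioxidant role, were below 0 on their brightest probe sets. SESN3, a FOXO target as well, was at 1360.4 and 824, 1.65-fold lower (-0.72 ± 0.31). Its second kept probe set (235683_at) went the other way, from 261 to 384 (0.56), and the third, at the floor on 1 array, was at -0.06. The mean over the 3 was -0.08, so the call of SESN3 rests on 225123_at. SESN1 was at 1167 and 933 (-0.32 ± 0.31) on its single probe set, just beyond its error. SESN2 was at 718 and 640.3 (-0.16 ± 0.31), with its other probe set at 0.30. TIGAR, a fructose bisphosphatase that diverts glucose towards NADPH, was at 2514 and 2674 (0.09 ± 0.27). TP53I3, a quinone oxidoreductase, was at 197 and 230.1 (0.22 ± 0.38).

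The members tied to cell death were within their error. TP53INP1, a cofactor in p53-dependent death and autophagy, was at 182 and 193.5 (0.08 ± 0.38). PHLDA3, which competes with AKT for membrane lipids, was at 328 and 320.4 (-0.04 ± 0.38), with its second probe set at 0.54. AEN, an apoptosis-enhancing nuclease, was at 979 and 1210.2 (0.31 ± 0.31).

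**Figure D2:**
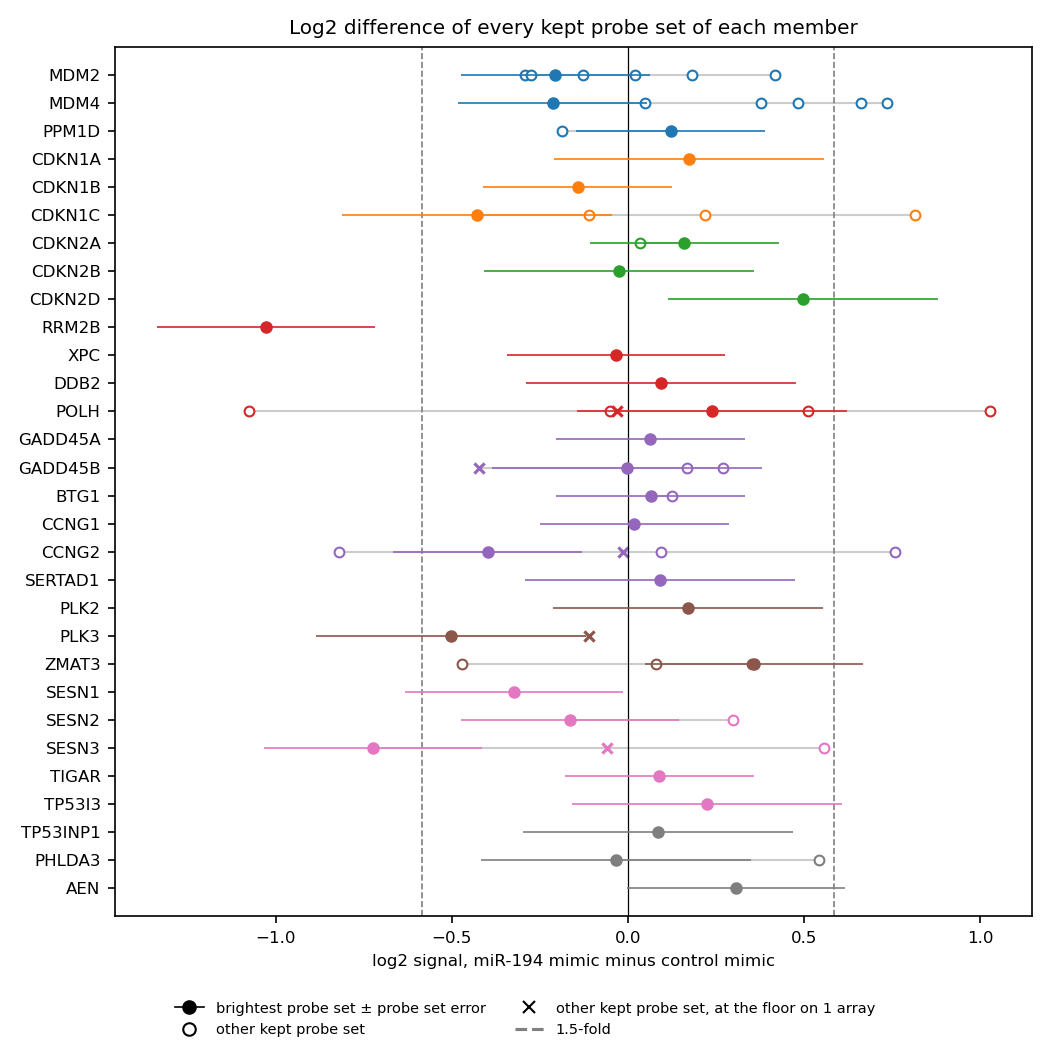
Log2 difference between the arrays for every kept probe set of the 30 members: filled points with bars show the brightest probe set ± the probe set error, open circles the other probe sets and crosses those at the floor on 1 array. RRM2B has a single point at -1.03, while POLH spans -1.08 to 1.03 and SESN3 spans -0.72 to 0.56.

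Disagreement between probe sets was common in this list. Of the 30 kept members 16 had 1 kept probe set, RRM2B among them. Of the other 14, 11 had probe sets on both sides of 0, and CDKN2A, BTG1 and PLK3 did not. Over all genes with 2 or more kept probe sets, 54.0% had both signs, but these had a mean of 2.77 probe sets against 3.64 for the members. In CDKN1C, POLH, CCNG2 and SESN3, 4 of the 14 (28.6%), the probe sets of the gene lay 2-fold or more apart, against 10.8% of all genes with 2 or more kept probe sets. Across all 67 kept probe sets of the members, 4 were lower and 5 were higher by 1.5-fold or more. These are 5.97% and 7.46%, against 7.99% and 5.08% of all 24226 kept probe sets.

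**Figure D3:**
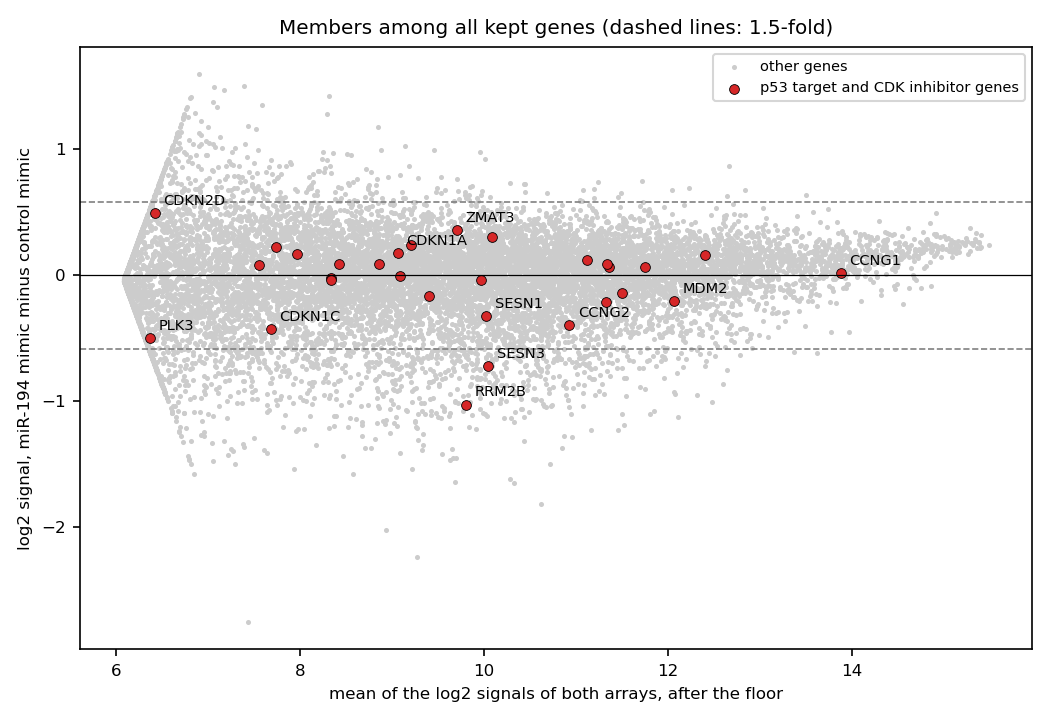
Each kept gene by the mean of its log2 signals (horizontal) and its log2 difference, miR-194 mimic minus control mimic (vertical), with the members in red and dashed lines at 1.5-fold. RRM2B at -1.03 and SESN3 at -0.72 are the red points outside the dashed lines.

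The members' promoters were searched for p53 sites near their start sites, and most of those searched had none. RefSeq windows from 250 bases before to 50 bases after each start site (GRCh38.p14) were found for 29 of the 34 members. CDKN1C, GADD45A, PHLDA3, RRM2B and TP53INP1 had no window in the sequences used and were not searched. The motif was the p53 decamer consensus, which is its own reverse complement and so covers both strands. At least 1 decamer lay in the windows of 5 of the 29 members (17.2%), against 8.06% of all genes with a window. Counted by window it was 5 of 41 (12.2%), against 6.63%. A pair of decamers with a spacer of at most 13 bases, the full p53 response element, lay in the window of DDB2 alone among the members and in those of 10 of 27305 genes (0.037%). The sites are printed with the decamers in capitals.
DDB2: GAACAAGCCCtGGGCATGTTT
AEN: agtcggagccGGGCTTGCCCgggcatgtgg
FDXR: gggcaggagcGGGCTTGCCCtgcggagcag
PLK2: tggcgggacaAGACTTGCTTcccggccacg
SESN1: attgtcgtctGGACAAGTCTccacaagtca
The DDB2 element (chr11:47214979-47214999, plus strand) covers bases 6 to 26 after the start. The AEN decamer lies 25 to 34 bases upstream (printed with its flanks, chr15:88621296-88621325, plus strand) and that of FDXR 2 to 11 bases upstream (chr17:74872986-74873015, minus strand). Those of PLK2 (chr5:58460199-58460228, minus strand) and SESN1 (chr6:109009018-109009047, minus strand) lie 123 to 132 and 40 to 49 bases upstream. The 4 of these genes with a value did not share a direction: DDB2 was at 0.09, AEN at 0.31, PLK2 at 0.17 and SESN1 at -0.32. No match says only that these letters are not in the window, since many p53 sites lie farther away or in introns. The E2F sites TTTCCCGC and TTTGGCGC, on either strand, lay in the windows of AEN, BTG1, MDM2 and XPC (13.8% of 29 members, against 2.75% of all genes), and the differences of these genes ran from -0.21 to 0.31.

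The rest of the pathway was read through lists chosen by name. Of 16 genes of the p53 family with its upstream kinases and cofactors, 14 were kept, with a median of -0.13. By 1.5-fold or more 2 were lower (14.3%), ATM and ATR, and 0 higher, against 7.36% and 3.02% of all kept genes. In this list 6 genes (42.9%) differed by more than their error, 4 lower and 2 higher, against 29.3% of all kept genes (2166 lower, 1580 higher). ATM, the kinase that responds to double-strand breaks and activates p53, was at 1045 and 490 (-1.09 ± 0.31, 2.13-fold lower). Of its 4 kept probe sets 3 were lower by 1.5-fold or more (-1.09, -1.03 and -0.69), and the dimmest was at 0.48 on signals of 82.8 and 115.5. ATR, the kinase of stalled replication forks, was at 2308 and 1204 (-0.94 ± 0.31), with its second probe set at -0.66.

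Other p53 targets, mostly of cell death, numbered 24 with 19 kept (median 0.05). By 1.5-fold or more 0 were lower or higher, against 7.36% and 3.02% of all kept genes. However, 8 of the 19 (42.1%) differed by more than their error, 2 lower and 6 higher, against 29.3% of all kept genes. Over all 12769 kept genes, 2166 were lower and 1580 higher by more than their error. Among the 6 higher, PMAIP1 and EI24 had a second probe set below 0, at -0.02 and -0.10. CD82 was at the floor on the control array, and RPRM had 1 probe set. BID and PIDD1 were higher on every kept probe set. The lowest was SFN, the 14-3-3 sigma protein that holds cells in G2, at 676 and 508 (-0.41 ± 0.38). Its other kept probe sets were at 0.38 (93.9 and 122.5) and, at the floor on 1 array, at -0.04. The highest was PIDD1, a scaffold for caspase-2, at 317 and 446 (0.49 ± 0.38), with its other probe set at 0.24.

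All 27 genes of the list of cyclins, CDKs and the RB/E2F axis were kept, 2 of them lower (7.41%, beside 7.36% of all kept genes) and 0 higher by 1.5-fold or more (median 0.02). Over all 54 kept probe sets of the list the counts past 1.5-fold leaned the other way, with 2 lower (3.70%) and 7 higher (12.96%). The shares of all kept probe sets were 7.99% and 5.08%. On the brightest probe sets 11 genes (40.7%) differed by more than their error, 8 lower and 3 higher, against 29.3% of all kept genes (2166 lower, 1580 higher). E2F1, the transcription factor that drives S-phase genes, was at 340.0 and 214 (-0.67 ± 0.38), with its second probe set at -0.10. RBL1, the RB relative p107, was at 714 and 461 (-0.63 ± 0.38), with others at 0.15 and -0.09. RB1, named after its values were seen, lay just short of 1.5-fold at 2736 and 1828 (-0.58 ± 0.27), and its second probe set, at the floor with the control mimic, was higher by at least 0.62. Of the direct partners of the CDK inhibitors, also named after their values were seen, CDK4 was at 0.14 ± 0.27 and CDK2 at 0.12 ± 0.27, with the second CDK2 probe set at 1.43. CDK6 was at -0.56 ± 0.31, beyond its error, with others from -0.50 to 0.05.

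**Figure D4:**
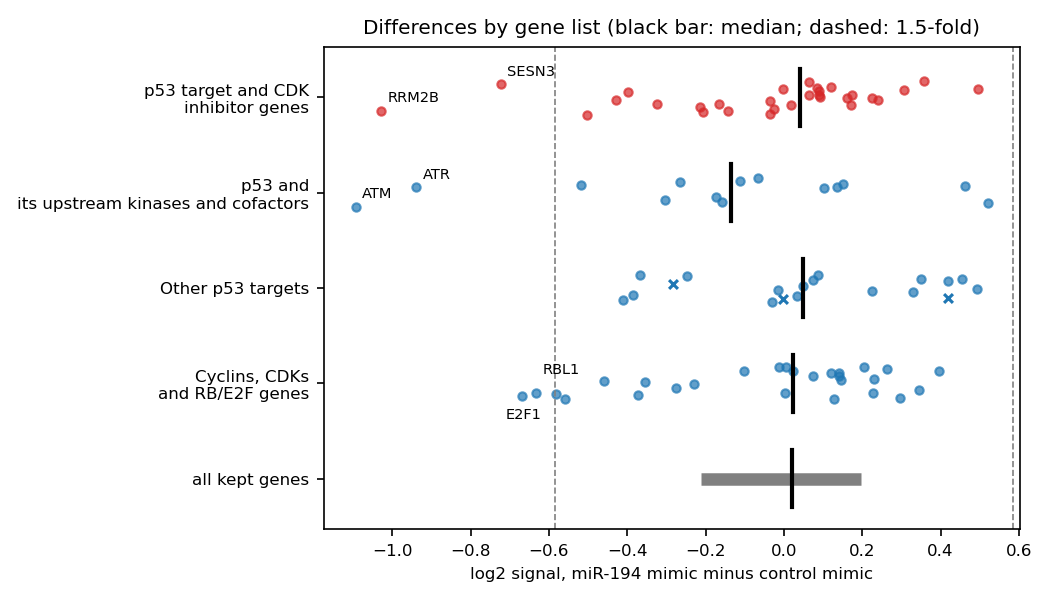
Log2 difference of each kept gene in the members' list (red) and in the 3 other pathway lists (blue), with crosses for genes at the floor on 1 array, black bars for list medians and, for all kept genes, a grey bar from the lower to the upper quartile. The medians lie at 0.04, -0.13, 0.05 and 0.02 beside 0.02 for all genes, and the labelled genes past 1.5-fold are all lower.

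Gene length moved with the difference across the array and is given beside these calls. In the shortest of 5 equal classes of kept genes (median genomic length 4.51 kb), 3.72% were lower by 1.5-fold or more, and in the longest class (median 160.1 kb) 14.2%. The members were short, with a median of 21.5 kb against 29.8 kb for all kept genes, and 12 of the 30 fell in the shortest class and 1, SESN1, in the longest. RRM2B, at 34.5 kb, was in the middle class, where 5.72% of genes were lower by 1.5-fold, and SESN3, at 67.0 kb, in the fourth, where 9.45% were. The list of p53 with its upstream kinases and cofactors was long, with a median of 77.7 kb, which falls in the fourth class. ATM (146.0 kb), ATR (129.5 kb), RB1 (178.1 kb) and RBL1 (99.6 kb) were in the longest class, and E2F1 (10.9 kb) in the second. The part of gene length in these differences was not tested.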

How the data were processed

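The authors deposited 1 table of log2 signals for 54675 probe sets on 2 arrays, 1 per group. The submitters' processing notes name MAS5 with no version, and its scaling target is not given in the sources used here. Column medians were 6.10 (control mimic) and 6.07 (miR-194 mimic). The log2 base was checked on the values: after raising 2 to them, the 2% trimmed means of the arrays were equal (500.1). Columns hold signals of single arrays, not ratios, which settles the direction. Scanner files and detection calls were not analysed here.

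Of the non-control probe sets, the platform annotation, which can be old, named 1 gene for 41091, several for 1801, which were left out, and none for 11721. RefSeq identifiers (GRCh38.p14) matched 41037 of the former, and gene lengths came from there. Signals under each array's median were set to it, probe sets with a mean above the mean floor were kept, and the brightest one stood for each of 12769 genes. The probe set error compares the log2 differences of a gene's 2 brightest kept probe sets: it is the SD of their gap over 6456 genes, divided by the square root of 2. It was taken in 3 classes of mean log2 signal, split at 9.23 and 10.87. A list is described by its counts past 1.5-fold and its median, beside the same over all kept genes.

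Members and lists were chosen with earlier results of these data known. All members were to be named, and from each other list the genes past 1.5-fold or else its lowest and highest kept gene. Alternatives were other scalings, floors, probe set choices and thresholds. The steps were tested on simulated data. Python 3.11.15, pandas 2.3.3, numpy 2.4.6 and statsmodels 0.14.6 (loess, span 0.3) were used.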

Additional observations from a re-analysis of the deposited data

How the results depend on the processing

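With 1 array per group no replicate can be left out, and no paired analysis was possible because each group holds 1 array. RRM2B ranged from -1.03 to -0.99 under the 8 alternatives that gave it a value, and has no second probe set. Only median, quantile and loess scaling moved its value. Its single probe set lies above every floor used and is not of shared sequence. The changes of floor, the mean over probe sets and the removal of shared-sequence probe sets therefore returned the same -1.03. These settings say nothing about how stable the RRM2B difference is. The number of members lower by 1.5-fold was 2, and became 1 with the mean over probe sets, 1 with the second brightest probe set (POLH at -1.08, among the 14 members that have one; RRM2B has none), 1 at a 2-fold threshold and 6 at a log2 threshold of 0.32. The number higher was 0, and became 1 with no floor (GADD45G, which then enters) and 2 at a log2 threshold of 0.32. For p53 with its upstream genes the number lower was 1 with the mean over probe sets and 1 at 2-fold, and the number higher was 2 at a log2 threshold of 0.32. For the other p53 targets the number higher was 1 with a floor at the 25th percentile, 1 with no floor, 1 with the second brightest probe set (median 0.24) and 6 at a log2 threshold of 0.32, where 3 were lower. For the cyclin, CDK and RB/E2F list the number lower was 1 with a floor at the 75th percentile, 0 with the mean over probe sets, 0 with the second brightest probe set, 0 at 2-fold and 7 at a log2 threshold of 0.32. There the number higher was 1 with the mean over probe sets (median 0.14), 5 of 18 with the second brightest probe set and 2 at a log2 threshold of 0.32. With the second brightest probe set 521 of all 6456 genes were lower and 431 higher by 1.5-fold or more. With the mean over probe sets these were 676 and 344 of 12769, with no floor 3512 and 2607 of 19775. With floors at the 25th and 75th percentile they were 2386 and 1588 of 17518, and 489 and 59 of 8131. Counts of all genes at a log2 threshold of 0.32 were not made here. The list counts at that threshold therefore cannot be set against all genes. With the second brightest probe set the sign turned for 12 of the 23 named genes that have one, 9 of them members, among them SESN3 (0.56) and RBL1 (0.15), which had been lower by 1.5-fold. The cause was not tested. Median, quantile and loess scaling moved no list median by more than 0.1 and none of the 30 members or 10 other genes named with a difference by more than its probe set error, though 4, 3 and 2 members near 0 changed sign. The deposited values carry no background estimate, and signals near the floor (CDKN2D, PLK3) fall in the class with the largest probe set error.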
